A study of Mus musculus with 4 samples.

Results

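Long intergenic noncoding RNAs (lincRNAs) that were expressed in mouse bone marrow-derived macrophages were followed after transfection with a mimic of the microRNA miR-204-3p. They were selected on the measured counts: rows with the biotype lincRNA and at least 20 raw counts in 2 or more of the 4 libraries, leaving out Malat1, Neat1, Gas5 and the host genes of small nucleolar RNAs (Snhg names) and of microRNAs (Mir names ending in hg). The count table had 54532 rows, of which 5559 were lincRNAs. Of these, 235 passed the count threshold, and 227 remained after the 8 named ones were left out. The 2 groups were macrophages that received the miR-204-3p mimic (2 libraries) and macrophages that received a negative-control (NC) mimic (2 libraries), each for 24 h, after marrow cells of both groups had been grown for 7 days with L929-conditioned medium as a source of M-CSF, the growth factor that drives macrophage formation. A mimic is a synthetic RNA duplex that stands in for a natural microRNA. Strain, genotype and age are not given in the labels. Whether the paired libraries of each group stem from different mice or dishes is not stated either, and p-values then reflect only how these samples vary, possibly for technical reasons.

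Total counts were 16837826 and 16295262 in the mimic libraries and 16446212 and 15899235 in the NC libraries. Of 8 macrophage markers 6 were lower and 1, Fcgr1, was higher with the mimic, and Mertk was near 0 in every library. Their summed level was 3438 and 3454 CPM (counts per 1000000 counts) in the mimic libraries and 17170 and 19030 CPM in the NC libraries. Summed B cell markers were at 3.38 and 3.71 CPM in the mimic libraries and at 250 and 225 CPM in the NC libraries, while the defining B cell gene Ms4a1 had 0 counts throughout. Summed T and NK cell, fibroblast and erythroid markers stayed at or below 0.436 CPM in each library. In bulk RNA, fewer cells of a type and less RNA per cell cannot be told apart.

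LincRNAs are transcribed by RNA polymerase II from outside protein-coding genes, and many start head to head with a protein-coding promoter. Some act in the nucleus on a neighbouring gene and others in the cytoplasm, where they can bind proteins or microRNAs, and many are kept scarce by the nuclear exosome, the complex that degrades surplus nuclear RNA. In macrophages, lincRNA-Cox2 is known as a transcript induced by Toll-like receptor ligands, and Morrbid as a regulator of the lifespan of short-lived myeloid cells.

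The 227 lincRNAs were mostly scarce. Their mean level over the 4 libraries, in TPM, the counterpart of CPM that corrects for gene length so that genes can be compared, had a median of 3.64 and lay between 0.304 and 187 TPM. Averages over 10 TPM were found for 55 of them and averages under 1 TPM for 24. TPM lack the scaling factors between libraries that CPM and fold changes carry, so ratios of TPM between groups differ from the stated fold changes. The median raw count over the lincRNAs was 50 and 48 in the mimic libraries and 31 and 29 in the NC libraries. No lincRNA was at 0 in a mimic library, while 3 and 2 were at 0 in the NC libraries. Together the 227 held 0.226% and 0.229% of all counts in the mimic libraries and 0.159% and 0.15% in the NC libraries, and the mimic libraries were the higher in each pairing.

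With the mimic, 84 of the 227 lincRNAs were higher and 51 were lower (edgeR quasi-likelihood test, Benjamini-Hochberg adjusted p under 0.05 over all 13186 tested genes). These are 37.0% and 22.5% of them, where 31.1% of all tested genes were higher and 29.7% were lower. Differences of at least 2-fold were found for 74 higher and 40 lower lincRNAs, where 15.5% of all tested genes were higher and 16.1% lower by this rule. The groups did not overlap for 179 lincRNAs, against 80.7% of all tested genes. Of the 179, 113 were higher in both mimic libraries and 66 were lower. Among the lincRNAs past the threshold 62.2% were higher, where 51.1% of all genes past it were. When libraries were scaled by their size alone, 75% of the lincRNAs past it were higher (108 higher and 36 lower). Of all genes past it 71.0% were then higher (6151 higher and 2513 lower). The median log2 fold change, mimic over NC, was 0.38 for the lincRNAs and 0.04 for all tested genes. Scaling by library size alone moved both medians upward, to 0.74 and 0.40, so that the lincRNA median lay 0.34 above that of all genes under either scaling.

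These counts depend on how the lincRNAs were selected, since meeting the threshold in the libraries of only 1 group favours a difference toward that group. There were 57 that reached 20 counts in the mimic libraries only, of which 42 were higher and 0 lower. There were 18 that did so in the NC libraries only, of which 0 were higher and 17 lower. Of the 111 that reached 20 counts in all 4 libraries, 30 were higher, 29 lower and 52 not past the threshold. These are 27.0% higher and 26.1% lower, where all tested genes had 31.1% and 29.7%. With scaling by library size alone 41 were higher and 18 lower, where 6151 and 2513 of all 13186 tested genes were. With gene-length offsets 39 were higher and 25 lower, where 4032 and 3958 of all tested genes were. The median log2 fold change of the 111 was -0.01, which turned to 0.35 with scaling by library size alone. Its difference from the median of all genes was -0.05 under both scalings and 0.16 with gene-length offsets. The remaining 41 reached 20 counts in some libraries of each group, and 12 were higher and 5 lower. Just inside the threshold stood 2010110K18Rik with 22 and 20 counts in the mimic libraries and 13 and 7 in the NC libraries, AC154378.1 with 20 and 26 against 8 and 15, and A330069E16Rik with 17 and 21 against 20 and 13. Just outside it stood 5 lincRNAs whose second-highest count was 19, among them F420014N23Rik with 19 and 28 counts in the mimic libraries and 5 and 7 in the NC libraries, and Gm29340 with 6 and 3 against 19 and 21.

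**Figure D1:**
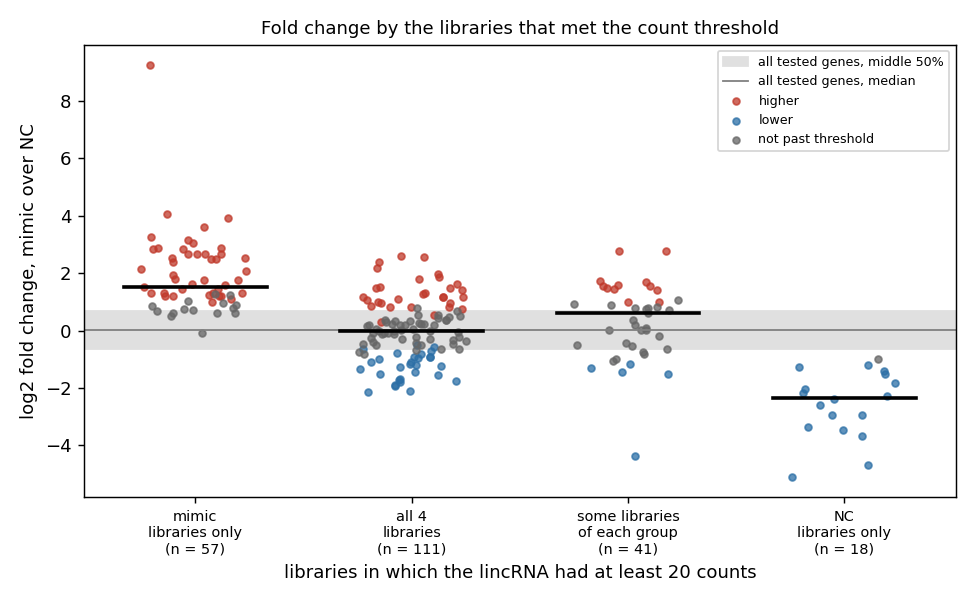
Log2 fold change (mimic over NC, vertical axis) of each of the 227 lincRNAs, split by the libraries in which it had at least 20 counts, with black bars at the medians and the grey band spanning the middle 50% of all tested genes. The 111 lincRNAs that met the threshold in all 4 libraries are centred at -0.01 (0.35 with scaling by library size alone, 0.18 with gene-length offsets), whereas those that met it through 1 group alone sit on the side of that group, apart from Gm13832 at -0.083 among those that met it in mimic libraries only.

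The largest increase was that of Gm26797 (ENSMUSG00000097572, mm10 chromosome 9, 122295869 to 122310928, minus strand), a lincRNA with 6 exons that lies 1446 bases from Ano10. It had 88 and 85 counts in the mimic libraries and 0 and 0 in the NC libraries, which is at least 43.8-fold higher if the NC group is set to a floor of 3 counts over its 2 libraries together (edgeR adjusted p = 1.02e-06). Ano10, a membrane protein gene of the anoctamin family, did not pass the threshold, with a log2 fold change of 0.20 ± 0.13 (± gives the standard error of log2 fold changes and the SD over 2 libraries of levels). Gm26797 was thus seen in mimic libraries only, next to a gene that did not pass. Its span overlaps another gene, and some of its exonic bases lie in exons of another gene. Whether reads were assigned by strand is not stated, so its counts could hold reads from outside this lincRNA.

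Gm49249, on chromosome 15, had 37 and 34 counts in the mimic libraries and 0 and 3 in the NC libraries, a ratio of 18 with a 95% counting interval of 5.90 to 89.2. Gm14168, on chromosome 2 downstream of the splicing factor gene Aar2, had 23 and 21 counts in the mimic libraries and 1 and 1 in the NC libraries, a ratio of 16.7 with an interval of 4.36 to 142. In both, chosen by the size of their increase, the groups did not overlap, as in 80.7% of all tested genes. The size of the difference was loosely bounded at these counts. Gm49249 shares 25.2% of its 50-base words with other genes, among them Gm2348, so its counts are uncertain. The Gm49249 log2 fold change was 4.07, and it became 3.09 without NC replicate 1 and 8.04 without NC replicate 2.

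More abundant among the increases were Gm14275, Gm49539 and 1810008I18Rik. Gm14275 (chromosome 2, 172288133 to 172290520, plus strand) was at 5.98 and 10.5 CPM in the mimic libraries and at 0.485 and 1.21 CPM in the NC libraries, 9.67-fold higher (log2 fold change 3.27 ± 0.42, edgeR adjusted p = 1.22e-05). Gm49539 (chromosome 15, 85646083 to 85667675, plus strand) was at 7.38 and 5.61 CPM in the mimic libraries and 0.485 and 1.07 CPM in the NC libraries, 8.35-fold higher (log2 fold change 3.06 ± 0.39, edgeR adjusted p = 1.17e-05). 1810008I18Rik was at 3.79 and 3.16 CPM in the mimic libraries and 0.416 and 0.355 CPM in the NC libraries, with a log2 fold change of 3.15 ± 0.46. These 3 lie at least 37019 bases from a protein-coding gene, and in each the lower mimic library stood above the higher NC library several times over. Without NC replicate 2 the log2 fold change of Gm14275 was 4.05 and that of Gm49539 was 3.72. Without NC replicate 1 they were 2.75 and 2.59.

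Gm15706, with 2 exons, had 24 and 43 counts in the mimic libraries and 0 and 4 in the NC libraries (log2 fold change 3.60 ± 0.78). The Gm15706 value rests on few NC counts and was 2.61 without NC replicate 1 and 7.96 without NC replicate 2. Gm35037 lies 11480 bases from Tarm1, which encodes a receptor of myeloid cells. It was at 2.34 and 1.80 CPM in the mimic libraries and 0.485 and 0.071 CPM in the NC libraries (log2 fold change 2.85 ± 0.62), and was 4.72 without NC replicate 1 and 2.07 without NC replicate 2 on the log2 scale. Tarm1, on the other strand, rose 12.7-fold. Gm26534, which overlaps Tmem11, rose by 2.88 on the log2 scale and Gm32507, beside Tmem192, by 2.87. Both had 24 to 32 counts in each mimic library and 2 to 4 in each NC library.

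The largest decrease was that of Gm20442 (ENSMUSG00000092600, chromosome 17, 35743323 to 35764191, minus strand), with 1 and 1 counts in the mimic libraries and 33 and 26 in the NC libraries. The NC level was 38.9 times the mimic level, with a 95% counting interval of 10.3 to 329 (edgeR adjusted p = 2.08e-05). Gm5086, on chromosome 13, had 1 and 4 counts in the mimic libraries and 56 and 48 in the NC libraries. Its log2 fold change was -4.70 ± 0.57, and it became -4.02 when mimic replicate 1 was left out and -5.95 when mimic replicate 2 was. Both transcripts had at most 5 counts over the 2 mimic libraries.

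Gm36738 (ENSMUSG00000116097, chromosome 15, 78574411 to 78581616, minus strand) was the lowered lincRNA with the most counts among the 10 largest decreases. It had 41 and 17 counts in the mimic libraries and 488 and 427 in the NC libraries, which is 16.7 and 7.18 TPM against 170 and 155 TPM. The fall was 20.7-fold (log2 fold change -4.37 ± 0.28, edgeR adjusted p = 1.32e-08), and the log2 value was -5.11 without mimic replicate 1. It lies 1628 bases from Rac2, the GTPase of the phagocyte oxidase, on the same strand and upstream of it. Rac2 fell 1.78-fold, so the lincRNA fell by more than the gene beside it.

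F630040K05Rik and 1600014C23Rik start 662 bases apart on opposite strands of chromosome 17. F630040K05Rik was at 0.728 and 0.763 CPM in the mimic libraries and 11.2 and 8.03 CPM in the NC libraries, a 12.8-fold fall (log2 fold change -3.68 ± 0.34, edgeR adjusted p = 4.29e-07). 1600014C23Rik fell by 3.34 ± 0.53 on the log2 scale, so the pair fell together. Prr33, listed as a lincRNA despite its protein-style name, overlaps Lsp1, a leukocyte actin-binding protein gene, on the other strand. Prr33 had 5 and 3 counts in the mimic libraries and 24 and 24 in the NC libraries, a log2 fold change of -2.94 ± 0.57, and Lsp1 fell by 3.04 ± 0.14. No source states that reads were assigned by strand. Those of Prr33 and Lsp1 could therefore be mixed where the spans overlap, although no exonic base of Prr33 lies in an exon of another gene.

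The other 5 of the 10 largest decreases were Gm33926, Gm35279, Gm30074, Gm807 and Gm10384. Gm33926, on chromosome 7, was at 0.728 and 0.545 CPM in the mimic libraries and 7.90 and 6.18 CPM in the NC libraries, 10.9-fold lower. Gm35279 and Gm807 both lie on chromosome 13. Gm35279 had a log2 fold change of -3.37, or -3.97 without mimic replicate 2 and -2.94 without mimic replicate 1. It had 2 and 4 counts in the mimic libraries and 26 and 23 in the NC libraries. Gm807 had a log2 fold change of -2.60, or -3.42 without mimic replicate 1 and -2.12 without mimic replicate 2. It had 16 and 6 counts in the mimic libraries and 54 and 48 in the NC libraries. Gm30074 had 9 and 2 counts in the mimic libraries and 25 and 40 in the NC libraries, a log2 fold change of -2.94 that became -4.29 when mimic replicate 1 was left out and -2.29 when mimic replicate 2 was. Gm10384 had 13 and 4 against 26 and 42 counts, with a log2 fold change of -2.39 that was -3.41 without mimic replicate 1. All 5 were chosen by the size of their fall. Their groups did not overlap, as in 80.7% of all tested genes.

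**Figure D2:**
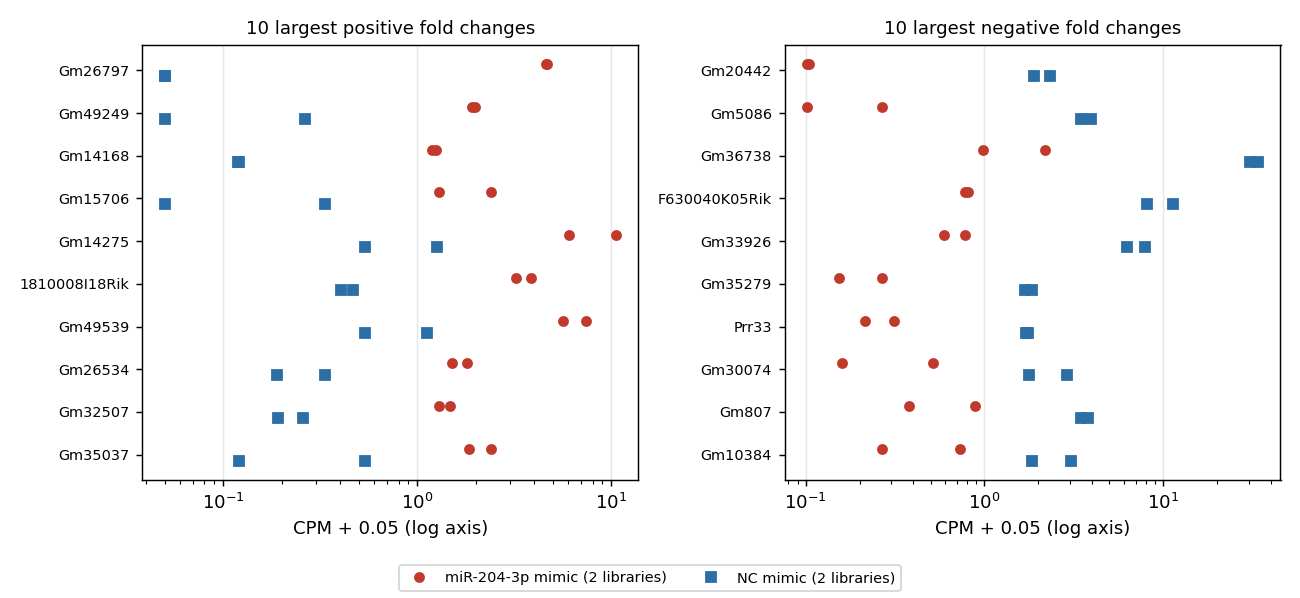
CPM plus 0.05 on log axes for each library of the 10 lincRNAs with the largest positive (left) and the 10 with the largest negative (right) log2 fold change, with mimic libraries as red circles and NC libraries as blue squares. In all 20, which were chosen by the size of their difference, the groups stand apart. Most lie under 10 CPM in the group where they are high. Gm36738 is the most abundant, at 33.8 and 30.3 CPM in the NC libraries.

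Per length, the most abundant lincRNA was Gm10076, followed by Epb41l4aos, Gm26917, Gm42047 and Gm6329. Their TPM lack the scaling between libraries that CPM and fold changes carry. Gm10076, a single-exon locus on chromosome 14, was at 101 and 157 TPM in the mimic libraries and 341 and 149 TPM in the NC libraries, a log2 fold change of -1.55 ± 0.30 that was -0.82 without NC replicate 1. It shares 69.9% of its 50-base words with the ribosomal protein gene Rpl41, which had 10082 and 5536 counts in the mimic libraries and 45321 and 45276 in the NC libraries, so reads of the coding gene could be counted there. Epb41l4aos was at 144 and 86.2 TPM in the mimic libraries and 273 and 225 TPM in the NC libraries. It fell 3.33-fold (log2 fold change -1.74 ± 0.21, edgeR adjusted p = 6.25e-06) and shares no 50-base word with another gene, although its span holds a small nucleolar RNA row.

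Gm42047 and Gm26917 held 32.5% and 31.9% of all counts of the 227 lincRNAs in the mimic libraries and 20.9% and 20.9% in the NC libraries. Gm42047 had 7752 and 6865 counts in the mimic libraries and 3365 and 2916 in the NC libraries (log2 fold change 0.82 ± 0.13). It shares 64.8% of its 50-base words with another lincRNA, Gm47939, which itself had 1 and 2 counts in the mimic libraries and 0 and 0 in the NC libraries. Gm26917, on chromosome 17 directly beside a ribosomal RNA row of the table (CT010467.1), had 4624 and 5031 counts in the mimic libraries and 2091 and 2083 in the NC libraries (log2 fold change 0.81 ± 0.13, edgeR adjusted p = 7.14e-05). The ribosomal RNA row went the other way, with 36330 and 55075 counts in the mimic libraries and 61992 and 48368 in the NC libraries (log2 fold change -0.66 ± 0.18). Without these 2 lincRNAs the others held 0.152% and 0.156% of all counts in the mimic libraries and 0.126% and 0.119% in the NC libraries. Gm6329, the fifth, did not pass the threshold, at 158 and 186 TPM in the mimic libraries and 116 and 104 TPM in the NC libraries (52.6 ± 6.51 CPM with the mimic and 51.5 ± 4.81 CPM with NC). It did pass with scaling by library size alone (log2 fold change 0.39, edgeR adjusted p = 0.0268) and with gene-length offsets (0.53, edgeR adjusted p = 0.00522). Gm13391 did not pass either, at 21.0 ± 4.77 CPM with the mimic and 18.1 ± 3.09 CPM with NC, but passed with scaling by library size alone (0.58, edgeR adjusted p = 0.0219) and with gene-length offsets (0.63, edgeR adjusted p = 0.0107).

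Of 15 lincRNAs with an established name or role, 5 were higher, 2 were lower and 8 did not pass the threshold. These are 33.3% higher and 13.3% lower, where all tested genes had 31.1% and 29.7%. Ptgs2os2, the mouse lincRNA-Cox2, rose 3.33-fold. It was at 4.05 and 4.85 CPM in the mimic libraries and 1.46 and 1.21 CPM in the NC libraries (log2 fold change 1.74 ± 0.35, edgeR adjusted p = 0.000667). Its neighbour Ptgs2, which encodes the inducible cyclooxygenase and lies 50816 bases away, rose 9.08-fold. The direction was thus the same for both, and the groups did not overlap in either, as in 80.7% of all tested genes.

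Lncpint, a p53-responsive lincRNA, had 24 and 25 counts in the mimic libraries and 6 and 1 in the NC libraries, with a log2 fold change of 2.38 ± 0.65 (edgeR adjusted p = 0.00588). At these counts the call was lost without NC replicate 2 (log2 fold change 1.62, edgeR adjusted p = 0.0786) and the value was 4.05 without NC replicate 1, so 1 NC library decides its size. Ftx, a transcript of the X-inactivation centre, was at 5.87 and 5.78 CPM in the mimic libraries and 2.56 and 2.20 CPM in the NC libraries, 2.44-fold higher (edgeR adjusted p = 0.00162). Jpx, another transcript of that centre, was at 2.03 and 2.23 CPM in the mimic libraries and 1.11 and 1.42 CPM in the NC libraries and did not pass (log2 fold change 0.75 ± 0.40, edgeR adjusted p = 0.121), although it did with scaling by library size alone (1.11, edgeR adjusted p = 0.0249). A930007I19Rik, within the span of Ric1, rose 2.97-fold, to 4.08 ± 0.551 CPM with the mimic, against 1.37 ± 0.224 CPM with NC. Bvht, known as Braveheart from heart cell commitment, fell to 4.47 ± 0.226 CPM with the mimic, against 8.55 ± 1.04 CPM with NC (log2 fold change -0.93 ± 0.25, edgeR adjusted p = 0.00482), a call that was lost with scaling by library size alone (edgeR adjusted p = 0.0576) and with gene-length offsets (edgeR adjusted p = 0.319).

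Several well-studied lincRNAs gave values in which the 2 groups met. 1700020I14Rik, the mouse Cyrano, which triggers the decay of miR-7, was at 47.3 and 41.7 CPM in the mimic libraries and 46.5 and 44.2 CPM in the NC libraries (log2 fold change -0.03 ± 0.14). 2900097C17Rik, the mouse Norad, a binder of Pumilio proteins, was at 108 and 84.9 CPM in the mimic libraries and 118 and 92.9 CPM in the NC libraries (-0.12 ± 0.15). It shares 39.5% of its 50-base words with Gm7292, so its counts are uncertain. Gm14005, the mouse Morrbid, was at 4.83 and 4.74 CPM in the mimic libraries and 4.16 and 6.25 CPM in the NC libraries (-0.12 ± 0.28). In these 3 the ranges of the groups overlapped, and Bcl2l11, the proapoptotic gene that Morrbid is known to repress, was likewise not past the threshold (-0.04 ± 0.14).

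Trp53cor1 (lincRNA-p21, upstream of Cdkn1a), Lockd (downstream of Cdkn1b) and Pvt1 (downstream of Myc) also missed the threshold, with groups that did not overlap. Trp53cor1 was at 4.94 and 3.87 CPM in the mimic libraries and 3.40 and 2.91 CPM in the NC libraries, a log2 fold change of 0.48 ± 0.30, and it shares 38.4% of its 50-base words with AC167363.1. Lockd was at 9.23 ± 0.329 CPM with the mimic and 7.19 ± 0.42 CPM with NC (0.36 ± 0.22), while Cdkn1b fell by 1.05 ± 0.15. Pvt1 was at 9.61 and 10.6 CPM in the mimic libraries and 12.1 and 11.9 CPM in the NC libraries (-0.25 ± 0.20). Myc, 47612 bases from Pvt1, rose 18-fold. With scaling by library size alone Trp53cor1 (0.85, edgeR adjusted p = 0.0239) and Lockd (0.72, edgeR adjusted p = 0.0112) passed as higher and the Pvt1 value turned to 0.11. Gm37494 gave -0.04 ± 0.25.

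**Figure D3:**
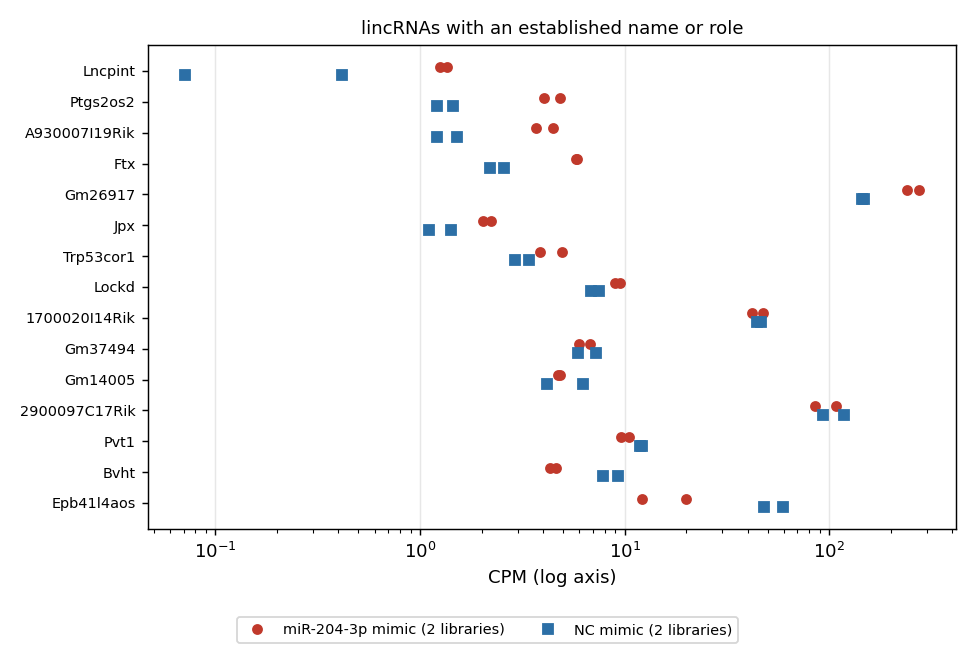
CPM on a log axis in each library for the 15 lincRNAs with an established name or role, ordered by log2 fold change, with mimic libraries as red circles and NC libraries as blue squares. Lncpint, Ptgs2os2, A930007I19Rik, Ftx and Gm26917 lie to the right in the mimic libraries and Bvht and Epb41l4aos to the left, while the symbols of 1700020I14Rik, Gm37494, Gm14005 and 2900097C17Rik overlap.

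For 185 lincRNAs the nearest protein-coding gene was itself tested. The sign of the log2 fold change was the same for lincRNA and gene in 108 of these pairs (58.4%), where it was the same in 53.1% of 8191 pairs of a protein-coding gene and its nearest tested protein-coding gene. Across the 185 pairs the log2 fold changes correlated at Pearson r = 0.20 and Spearman rho = 0.23, as a description only, since every pair comes from the same 4 libraries and some genes are nearest to more than 1 lincRNA. Among the protein-coding pairs Pearson r was 0.19 and Spearman rho 0.11. Both partners passed the threshold in 69 pairs: 28 with both higher, 17 with both lower, 17 with the lincRNA higher and the gene lower, and 7 with the lincRNA lower and the gene higher. The direction was thus the same in 65.2% of these pairs, where it was the same in 57.5% of the 3153 coding pairs in which both passed. LincRNAs near a raised gene had a median log2 fold change of 0.96 (58 lincRNAs, 28 or 48.3% higher and 7 or 12.1% lower). Those near a lowered gene had one of -0.08 (57 lincRNAs, 17 or 29.8% higher and 17 or 29.8% lower), which turned to 0.28 with scaling by library size alone. All tested genes had 31.1% higher and 29.7% lower.

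A start within 5 kb of a protein-coding gene and facing away from it was found for 39 lincRNAs. Of these, 16 were higher (41.03%) and 7 lower (17.95%), with a median log2 fold change of 0.60. All tested genes had 31.1% higher, 29.7% lower and a median of 0.04. The log2 fold changes of the 39 correlated with those of the nearest protein-coding genes at Pearson r = 0.45 and Spearman rho = 0.29 (39 pairs, a description). The nearest gene need not be the one that faces away. Some pairs moved together and others apart, and those named next were chosen after their values were seen. Beside Arid2, a chromatin remodelling subunit gene, 2610037D02Rik was at 9.30 and 12.3 CPM in the mimic libraries and 2.15 and 0.994 CPM in the NC libraries (log2 fold change 2.77 ± 0.34), and Arid2 rose by 1.07 ± 0.13. Gm17399, which starts 54 bases from the mitochondrial assembly gene Cmc1, was at 7.54 and 10.6 CPM in the mimic libraries and 2.22 and 1.78 CPM in the NC libraries (2.18 ± 0.30). Cmc1 went the other way, at 17.3 and 16.8 CPM in the mimic libraries and 61.0 and 52.3 CPM in the NC libraries (-1.73 ± 0.15). Gm17586, 168 bases from the transcription factor gene Mafg, was at 4.37 and 4.58 CPM in the mimic libraries and 6.24 and 11.4 CPM in the NC libraries (-0.97 ± 0.29), while Mafg rose by 0.63 ± 0.12.

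The same contrast of joint and opposite movement was seen at longer distance, again in pairs chosen after their values were seen. Gm47507 lies 16715 bases from Klf6, a zinc-finger transcription factor gene. It had 217 and 244 counts in the mimic libraries and 31 and 27 in the NC libraries (log2 fold change 2.59 ± 0.27), and Klf6 rose 2.68-fold. 4930512J16Rik lay near Plxna1, a semaphorin receptor gene that rose by 3.98 on the log2 scale, yet the lincRNA itself fell by 1.10.

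**Figure D4:**
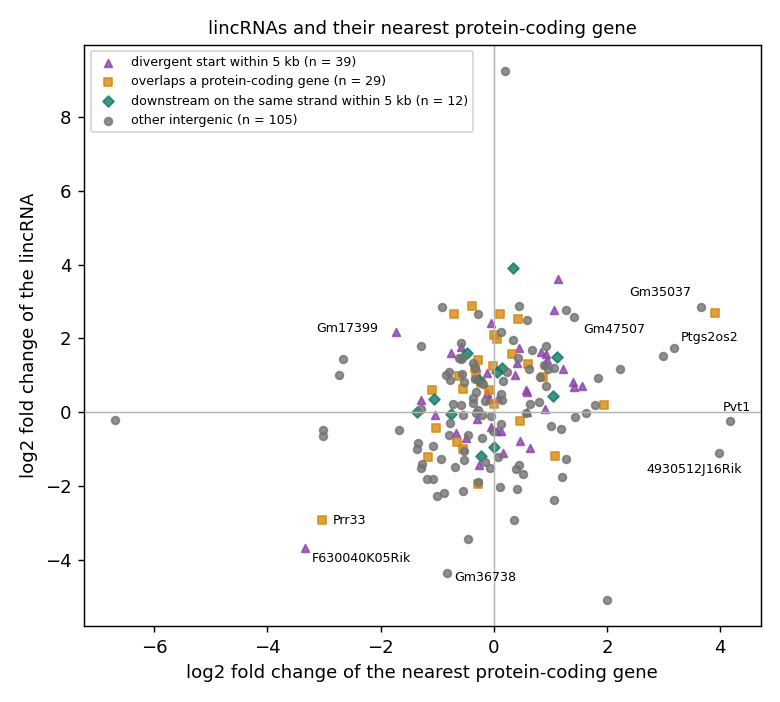
Log2 fold change (mimic over NC) of the nearest tested protein-coding gene (horizontal axis) and of the lincRNA (vertical axis) for 185 pairs, coloured by position. The points scatter around the origin with a weak upward slope (Pearson r = 0.20), with Gm35037, Ptgs2os2 and Gm47507 at upper right, Prr33 and F630040K05Rik at lower left, and Gm17399, Pvt1 and 4930512J16Rik among those off the diagonal.

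By position, lincRNAs that overlap a protein-coding gene had the highest median log2 fold change. Of these 34, 18 were higher (52.9%) and 4 lower (11.8%), with a median of 0.96, and their counts can hold reads of the coding gene. All tested genes had 31.1% higher, 29.7% lower and a median of 0.04. The 14 that follow a coding gene within 5 kb on its strand had a median of 0.58 (5 or 35.7% higher, 2 or 14.3% lower). The 140 others had one of 0.19 (45 or 32.1% higher, 38 or 27.1% lower). The 167 lincRNAs with no exonic base in an exon of another gene had 61 higher (36.5%), 45 lower (27%) and a median of 0.31. The 60 with some had 23 higher (38.3%), 6 lower (10%) and a median of 0.66. None of these sets was split by the libraries that met the count threshold. Over all 227, 57 met it in the mimic libraries only and 18 in the NC libraries only.

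Medians also differed by length and exon number. The 76 longest lincRNAs, over 2547 bases, had a median log2 fold change of 0.69 (32 higher, 12 lower). The 75 of middle length had 0.33, and the 76 shortest, up to 1438 bases, had 0.23 (27 higher, 20 lower). These calls are 42.1% and 15.8% of the longest and 35.5% and 26.3% of the shortest. All tested genes of the longest range had 35.6% higher and 25.9% lower, and those of the shortest 15.7% and 44.1%. Tested genes in the same length ranges had medians of 0.13, -0.13 and -0.50, or 0.49, 0.23 and -0.13 with scaling by library size alone. The order by length was thus also that of all genes, and the lincRNAs lay above it in each range. The ranges include the 57 lincRNAs that met the count threshold in the mimic libraries only, against 18 in the NC libraries only. The part of this selection in the height was not tested. The 111 that met the threshold in all 4 libraries had a median gene length of 1931 bases and a median log2 fold change of -0.01. With offsets that remove the trend with gene length, 101 lincRNAs were higher and 43 lower, where 4032 and 3958 of all tested genes were. The median was then 0.67 for the lincRNAs, 0.18 for the 111 and 0.03 for all tested genes. The order by length was then lost, with medians of 0.65 for the longest, 0.49 for those of middle length and 0.81 for the shortest. The 74 lincRNAs with 2 exons and the 74 with 4 or more had medians of 0.67 and 0.73, while the 56 with 3 and the 23 with 1 had medians of 0.01 and 0.01.

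Other noncoding rows of the table moved in the same direction in their share of counts. Antisense genes held 0.1% and 0.102% of counts in the mimic libraries and 0.0584% and 0.0578% in the NC libraries. Sense intronic genes held 0.00581% and 0.0061% in the mimic libraries and 0.003% and 0.00243% in the NC libraries, and TEC genes, loci still to be experimentally checked, held 0.0483% and 0.0509% in the mimic libraries and 0.0207% and 0.0179% in the NC libraries. Olfactory receptor genes, which serve smell in the nose and were read as a check on reads from outside expressed genes, had 307 and 296 counts in the mimic libraries and 104 and 92 in the NC libraries. More lincRNA rows of any level had at least 1 count in the mimic libraries, 968 and 946, than in the NC libraries, 728 and 726. The part of such reads in the higher lincRNA levels was not tested. Processed pseudogenes went the other way, at 1.62% and 1.64% of counts in the mimic libraries and 2.65% and 2.62% in the NC libraries.

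**Figure D5:**
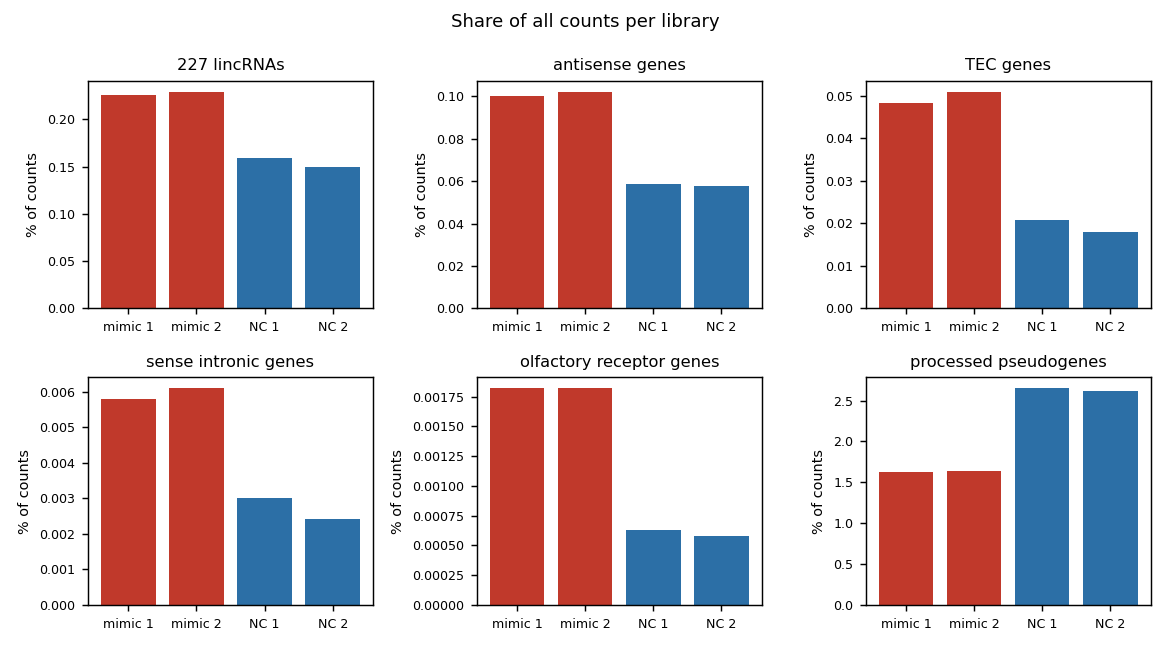
Share of all counts in each library (bars from 0, mimic libraries in red and NC libraries in blue) for the 227 lincRNAs and 5 other sets of rows. The lincRNA, antisense, TEC, sense intronic and olfactory receptor shares are higher in both mimic libraries, and the processed pseudogene share is lower, at 1.62% and 1.64% against 2.65% and 2.62%.

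Genes of the machinery that trims and degrades nuclear noncoding RNA were read beside the lincRNAs. Of 34 genes of the exosome, its nuclear adaptors and the Integrator complex, 33 were tested, 16 were higher and 3 were lower, which is 48.5% and 9.09%, where all tested genes had 31.1% and 29.7%, with a median log2 fold change of 0.37. Most of the 16 higher genes encode Integrator subunits. Among the exosome subunit genes, Exosc2, Exosc3, Exosc8 and Dis3 were higher and Exosc5 was lower. Exosc1, Exosc4, Exosc7, Exosc9 and Exosc10 did not pass. Dis3, a catalytic exosome subunit, was at 52.5 and 42.4 CPM in the mimic libraries and 14 and 15.5 CPM in the NC libraries (log2 fold change 1.69 ± 0.17). Srrt, which links the cap-binding complex to RNA degradation, rose by 1.61 ± 0.16, and the Integrator subunit gene Ints2 by 1.13 ± 0.17. The 3 lower genes were Exosc5, a core exosome subunit (log2 fold change -1.04 ± 0.13), Rbm7, an RNA-binding adaptor (-0.58 ± 0.14), and Pabpn1, the nuclear poly(A)-binding protein (-1.16 ± 0.30).

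Matches to the seed of the transfected microRNA were sought in the longest annotated transcript of each lincRNA, because base pairing through bases 2 to 8 is the usual way by which a microRNA meets a target. The mature sequence from RefSeq (GRCm38.p6, chromosome 19, 22750649 to 22750669, plus strand) is shown with these bases in capitals.
mmu-miR-204-3p: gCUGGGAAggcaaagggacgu
The DNA match TTCCCAG (the 7mer-m8 site, searched on the transcript strand) was present in 69 of the 227 lincRNAs (30.4%) and in 1022 of 5555 lincRNA rows with a transcript (18.4%). The median longest transcript had 1724 bases among the 227 and 987 bases among all lincRNA rows. Of the 69 with a match 29 were higher (42%) and 11 lower (15.9%), with a median log2 fold change of 0.38. Of the 158 without one 55 were higher (34.8%) and 40 lower (25.3%), with a median of 0.41. All tested genes had 31.1% higher and 29.7% lower. Among lincRNAs with at least 20 counts in all 4 libraries, 8 of 31 with a match were higher and 8 lower (median 0.07), and 22 of 80 without one were higher and 21 lower (median -0.04, or 0.32 with scaling by library size alone, where the 31 had 0.43). The medians with and without a match thus lay close together. A site searched by letters alone is a description and shows no binding.

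The lincRNA with the most matches among those named was 1700020I14Rik, with 4 in a transcript of 8300 bases, starting at bases 1619, 1671, 3892 and 5746. They are shown with the match in capitals because this abundant transcript did not pass the threshold.
1700020I14Rik at 1619: tcaggtaaattTTCCCAGtttgaattgagc
1700020I14Rik at 1671: cagaagcaatgTTCCCAGtcctgtggttgg
1700020I14Rik at 3892: tggcagatgccTTCCCAGccttgggaagtt
1700020I14Rik at 5746: tcagttcctttTTCCCAGggctttacactt
Gm26797, which rose most, and Gm20442 and F630040K05Rik, which were among the 4 that fell most, hold 1 match each, starting at bases 2453, 382 and 258 of their longest transcripts. Of the 10 largest increases 5 hold a match (Gm26797, Gm14168, 1810008I18Rik, Gm26534 and Gm35037), and of the 10 largest decreases 2 do (Gm20442 and F630040K05Rik). In Gm26797 and F630040K05Rik the match is followed by an A, as in the 8mer site.
Gm26797: ccctggttcaaTTCCCAGaacccacatggc
Gm20442: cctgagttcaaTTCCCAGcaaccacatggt
F630040K05Rik: ccccagaagtgTTCCCAGaacttgcttctg
The windows of Gm26797 and Gm20442 share the letters ttcaa just before the match and acatgg after it, and these lincRNAs changed in opposite directions. The letters ttcaa also stand just before the match in Gm26534, so they are not particular to these transcripts.

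Promoter windows of RefSeq (GRCm38.p6, 250 bases before to 50 bases after the start) could be matched to 119 of the 227 lincRNAs. The core letters of the interferon-stimulated response element, GAAA, any 2 bases and GAAA, on either strand, were found in 9 of the 119 (7.56%). By window this is 11 of 139 (7.91%), where 3.44% of 32851 windows of all genes hold them. Of the 9, Gm26797, Gm15834, Ptgs2os2 and Gm13073 were higher, D230017M19Rik and Gm33370 were lower, and Gm31718, Gm46224 and Gm8013 did not pass. The match of Gm8013 and that of Gm33370 are the same site, in windows that overlap. The windows of Gm15834 also overlap and hold the same site, so the share by window counts these sites more than once. The windows of Gm26797 (chr9:122310879-122311178, minus strand) and Ptgs2os2 (chr1:150164899-150165198, minus strand) are shown because they were the most strongly raised of all and a known inflammatory lincRNA, with the matching letters in capitals.
Gm26797 promoter: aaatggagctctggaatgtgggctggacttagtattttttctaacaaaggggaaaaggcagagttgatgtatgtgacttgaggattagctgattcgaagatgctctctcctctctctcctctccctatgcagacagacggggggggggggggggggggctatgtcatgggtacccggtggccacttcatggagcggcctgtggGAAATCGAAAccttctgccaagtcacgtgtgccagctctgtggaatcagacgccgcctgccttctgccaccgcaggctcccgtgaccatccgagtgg
Ptgs2os2 promoter: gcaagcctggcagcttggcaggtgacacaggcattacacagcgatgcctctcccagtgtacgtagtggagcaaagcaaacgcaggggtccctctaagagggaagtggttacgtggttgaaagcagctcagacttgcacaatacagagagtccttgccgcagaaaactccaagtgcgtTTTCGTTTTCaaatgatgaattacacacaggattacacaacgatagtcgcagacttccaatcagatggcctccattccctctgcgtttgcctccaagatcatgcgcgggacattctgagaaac
The letters lie 47 bases before the annotated start of Gm26797 on its own strand and 73 bases before that of Ptgs2os2 on the opposite strand. A match of letters is not evidence that a factor binds there.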

How the data were processed

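RNA-seq was run on 4 libraries of bone marrow-derived macrophages. Per the labels' protocols, total RNA was converted with NEBNext Ultra reagents. The authors deposited raw counts per gene, with symbol, biotype, coordinates and gene length in the table, and the submitters' processing notes name HISAT2 and mm10. Not given in the sources used here are the HISAT2 version, the program that counted reads and whether it used strand. No column was left unused.

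Tests were run in R 4.3.3 with edgeR 4.0.16 (glmQLFit and glmQLFTest, two-sided), TMM factors (1.14 and 1.13 for the mimic, 0.878 and 0.886 for NC), filterByExpr and Benjamini-Hochberg adjustment at 0.05 over 13186 genes. The steps were tested on simulated data. CPM values and the main fold changes are scaled by the TMM factors, whereas TPM values use the deposited gene length and no TMM factors. A group with 0 counts was set to a floor of 3 counts over its 2 libraries. Floors and 95% Poisson intervals cover counting error only. Exons, overlaps and transcripts came from GENCODE vM21 (GRCm38, the assembly of mm10), which holds all 227 lincRNAs, 221 with identical coordinates. Promoters and the microRNA came from RefSeq.

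The lincRNAs and all lists were chosen with earlier results of these data known. Named lincRNAs are the 10 largest changes in each direction past the threshold, the 5 with the highest TPM, a set of known names, the 3 most abundant not past the threshold and the 3 just inside the count rule. Others are said to be chosen after their values were seen. Some genes that these rules give are not reported here.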

Additional observations from a re-analysis of the deposited data

How the results depend on the processing

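No lincRNA past the threshold changed direction under any alternative, and 49 higher and 31 lower ones were called under every alternative but the 1.5-fold minimum. Counts of higher and lower lincRNAs were 108 and 36 with library size alone, 84 and 51 without a low-count filter, 85 and 51 with at least 20 counts in 2 libraries, 101 and 43 with gene-length offsets, 59 and 35 against a 1.5-fold minimum, 56 and 38 with DESeq2, and 60 to 73 and 43 to 47 without 1 library. Among lincRNAs with 20 counts in all 4 libraries they were 30 and 29, and 49 and 36 among those overlapping no other gene. All genes called numbered 4470 against a 1.5-fold minimum and 7046 with DESeq2, against 8022. Of all tested genes 6151 were higher and 2513 lower with library size alone, and 4032 and 3958 with gene-length offsets. The replicate block gave 76 higher and 49 lower lincRNAs and 8070 genes, with 123 of the 135 lincRNA calls kept. Same-numbered libraries deviated together at r = 0.0417, which was not taken as a pairing; whether they share a day or culture is not stated.

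Among named lincRNAs, signs turned only for those not past the threshold, and the cause was not tested. With library size alone 1700020I14Rik was at 0.34, 2900097C17Rik at 0.24, A330069E16Rik at 0.17, Gm14005 at 0.24, Gm37494 at 0.32 and Pvt1 at 0.11 on the log2 scale. A330069E16Rik was at 0.33 with gene-length offsets. Without 1 library the range was -0.12 to 0.038 for 1700020I14Rik, -0.32 to 0.045 for 2900097C17Rik, -0.46 to 0.12 for A330069E16Rik, -0.0585 to 0.43 for Gm13391, -0.40 to 0.19 for Gm14005, -0.20 to 0.10 for Gm37494 and -0.13 to 0.15 for Gm6329. Gene-length offsets moved Epb41l4aos to -0.93, Gm10076 to -0.69, Gm14275 to 4.09, Gm20442 to -4.37, Gm32507 to 3.66, Gm33926 to -2.60, Gm35037 to 3.60, Gm36738 to -3.55 and Gm49539 to 3.81. DESeq2 put Lncpint at an adjusted p of 0.059. Depth limits lincRNAs with few counts in 1 group.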
